A study of Mus musculus with 12 samples.

Results

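The genes described here are 35 genes of endothelial identity and vessel maturation, read in kidneys of *Bdkrb2* null and wild-type (WT) mouse embryos. *Bdkrb2* encodes the bradykinin B2 receptor, through which bradykinin acts on blood vessels and on the kidney. The 35 were taken as a named list, with the VEGF family left out, and each was found on the array by the accession of its probe. The list was chosen with earlier results of these data known, which limits every comparison of the members with all genes. Of the 35 genes, 34 had a probe, and 32 were bright enough to be tested, out of 12647 tested genes in all. *Clec14a* (a surface glycoprotein of endothelium) and *Erg* (an ETS transcription factor) stood well above background in none of the 24 channels (0 of 12 for each genotype), so their probes gave no ratio here. *Tal1* (a transcription factor of blood and endothelial precursors) had no matched probe and was not analysed here.

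Both groups were kidneys collected on embryonic day 14.5 from crosses of *Bdkrb2* heterozygous parents on a C57BL/6 background, and all the dams ate food with 5% sodium. The salt was therefore shared by null and WT embryos, and no unsalted group entered the comparison. RNA of the 2 genotypes was labelled with opposite dyes and hybridised together on 12 two-colour arrays. The null RNA carried Cy5 in the orientation called null/WT and Cy3 in the one called WT/null, with 3 replicates per orientation and 2 arrays per replicate. Replicates are named by orientation and number, and each number (1, 2 or 3) had both orientations on 1 slide. The labels do not say how many embryos a sample held, what the null allele deletes, or whether both orientations of a number shared an RNA extract, so the p-values measure only the spread between these 6 replicates.

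Blood vessels are lined by endothelial cells, which hold together through VE-cadherin and claudin 5 and carry surface proteins such as CD31 and CD34. SOX17-group and ETS factors set and keep that identity. As vessels mature, angiopoietin 1 from mural cells activates the receptor TIE2, angiopoietin 2 from endothelium modulates it, and the phosphatase VE-PTP restrains it. Notch ligands and receptors, with connexins, mark arterial endothelium, while ALK1 and endoglin respond to circulating BMP ligands. In the kidney at this stage the capillary bed spreads through the stroma and begins to enter the first glomeruli.

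The promoters of 4 members are shown because the text returns to these genes as the receptor pair of the angiopoietins, an arterial gene whose ratio varied widely, and one of the genes with the highest ratios. Of the 35 genes, 17 had promoter windows in the RefSeq table used (build GRCm38.p6), 26 windows in all. Each sequence below is the 250 bases before an annotated start, written 5′ to 3′ on the strand of the gene, with GGAA and its reverse complement TTCC, the core letters bound by ETS factors, in capitals. *Tek* is at chr4:94739039-94739288 on the plus strand, *Tie1* at chr4:118489850-118490099 on the minus strand, *Notch4* at chr17:34564045-34564294 on the plus strand, and *Adgrf5* at chr17:43360181-43360430 on the plus strand.
Tek: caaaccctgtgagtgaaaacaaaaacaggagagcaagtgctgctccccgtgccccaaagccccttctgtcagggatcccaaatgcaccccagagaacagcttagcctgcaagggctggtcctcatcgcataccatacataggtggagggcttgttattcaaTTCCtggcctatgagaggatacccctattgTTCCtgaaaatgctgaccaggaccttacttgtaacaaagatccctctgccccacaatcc
Tie1: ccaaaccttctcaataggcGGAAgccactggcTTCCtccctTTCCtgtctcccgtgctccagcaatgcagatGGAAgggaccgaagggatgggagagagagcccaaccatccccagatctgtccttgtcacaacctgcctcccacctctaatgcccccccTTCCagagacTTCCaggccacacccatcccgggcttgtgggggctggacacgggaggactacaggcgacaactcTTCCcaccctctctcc
Notch4: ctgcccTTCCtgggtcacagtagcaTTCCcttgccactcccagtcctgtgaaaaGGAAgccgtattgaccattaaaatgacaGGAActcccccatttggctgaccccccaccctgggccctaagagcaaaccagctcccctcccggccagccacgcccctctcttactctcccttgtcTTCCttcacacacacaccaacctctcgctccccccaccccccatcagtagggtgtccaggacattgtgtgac
Adgrf5: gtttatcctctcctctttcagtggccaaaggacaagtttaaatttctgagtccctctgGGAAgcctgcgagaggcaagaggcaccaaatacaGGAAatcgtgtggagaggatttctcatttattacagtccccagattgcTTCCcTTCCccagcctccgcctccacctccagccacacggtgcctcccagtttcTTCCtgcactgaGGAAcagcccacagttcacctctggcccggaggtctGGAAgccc
The *Tek* window held 2 GGAA matches, *Notch4* 5, and *Tie1* and this window of *Adgrf5* 7 each, counted on both strands. Over all members with a window, 84.6% of the 26 windows held GGAA, against 93.4% of the 32851 windows of the same length in the table. The longer GGAAG, which contains GGAA, was present in 69.2% against 64.1%. ACAAT, the core letters of SOX factors, was present in 34.6% against 27.7%, and TATAAA in 3.8% against 12.4%. Genes with several windows weigh more in these shares, among them *Ece1*, with overlapping windows that held no GGAA. Windows of the untested *Clec14a*, *Erg* and *Tal1* are included. These are matches of letters on either strand in a fixed window and no measure of binding.

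The endothelial label held in both genotypes. *Pecam1*, *Cdh5*, *Tek*, *Tie1* and *Kdr* were detected well above background in all 24 channels, as were 31 of the 32 tested members, and no member was saturated in any channel. The exception was *Angpt1*, detected in 11 null and 12 WT channels. Per array, the share of probes clearly above background was 40.5% to 58.3% in Cy3 and 50.4% to 59.4% in Cy5. Duplicate arrays of a replicate correlated at 0.711 to 0.923 over all probes, lowest in WT/null replicate 3, whose first array had the widest log2 ratios (SD 0.381, against 0.164 on the narrowest array). Between duplicates, a member's ratio differed by a median of 0.038 to 0.066 on the log2 scale. The genotypes were also unlike in sex: at numbers 2 and 3 *Xist* was detected in the 4 null channels of each number but in 0 of 4 WT channels, and the Y-linked *Ddx3y*, *Kdm5d* and *Eif2s3y* in the WT channels alone, while at number 1 *Xist* was detected in all channels of both genotypes. At numbers 2 and 3 sex and genotype cannot be told apart.

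The first question was whether the null kidneys differed from WT in these genes. No single member passed the test, but most had a ratio slightly over 0: 29 of the 32 tested members were higher in null than in WT, against 48.1% of all tested genes. The median log2 ratio of the members was 0.077 beside -0.003 over all tested genes. The 3 members on the other side were *Sox17*, *Angpt1* and *Nos3*, at -0.03, -0.04 and -0.02; with the arrays centred on their median in place of loess, which moved the median of all genes to 0.163, these 3 were over 0 as well and 28 of 32 members exceeded that median. The excess over all genes was seen chiefly in the WT/null orientation, as the values by replicate show further on. In bulk kidney RNA, more endothelial cells and more RNA per endothelial cell cannot be told apart.

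Of the 39 tested member probes, 0 passed an adjusted p of 0.05 in limma over all 22979 tested probes, where 0.0392% passed. At an unadjusted p under 0.05, 5 members were higher in null and 0 were lower, against 5.19% of all tested genes higher and 2.60% lower. Those 5 were *Vwf*, *Adgrf5*, *Ptprb*, *Mmrn2* and *Cdh5*. Counted by probe it was 6 of 39, the sixth being a second *Ednrb* probe, against 7.01% of all probes. In 0 members did the null levels of the 6 replicates clear the WT levels without overlap, a pattern of 0.0633% of all genes. The standard errors of the members' log2 ratios ran from 0.038 to 0.079 with a median of 0.051. With the replicate number as a block, so that the 3 pairs of orientations were tested against 0, 0 member probes passed either (0.0174% of all probes), and 4 had an unadjusted p under 0.05, against 3.3% of all probes.

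**Figure D1:**
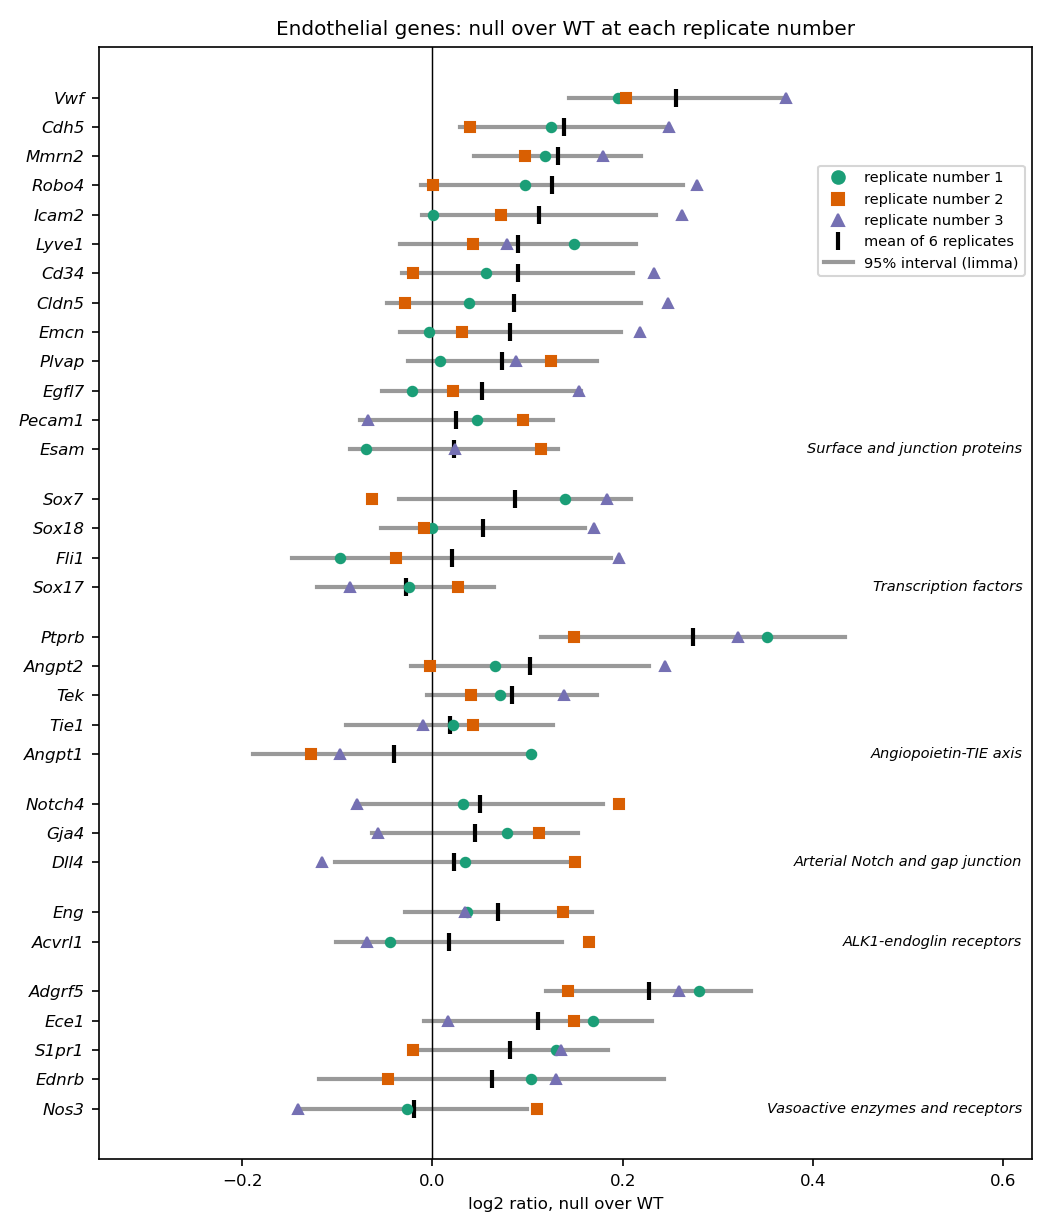
Log2 ratio of null over WT (x axis) for each of the 32 tested members (rows), grouped by role: coloured symbols are the means of both dye orientations at replicate numbers 1, 2 and 3, black ticks the mean of the 6 replicates and grey bars its 95% interval from limma. Most ticks lie right of 0, *Vwf*, *Ptprb* and *Adgrf5* farthest, and the purple triangles of number 3 spread from -0.14 for *Nos3* to 0.37 for *Vwf*.

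The surface and junction proteins were the largest group, and all 13 that were tested had a ratio over 0, with a median of 0.09. The highest was *Vwf*, von Willebrand factor, a clotting protein stored in endothelial granules. Its log2 ratio was 0.18, 0.27 and 0.33 in WT/null replicates 1, 2 and 3 and 0.21, 0.13 and 0.42 in the null/WT replicates. The log2 level in null RNA ran from 8.97 through a median of 9.23 to 9.37, and in WT RNA from 8.75 through 8.88 to 9.20. Every replicate was higher in null, while the levels of the 2 genotypes overlapped because the replicate numbers differed in level. The fitted ratio was 0.26 ± 0.05 (SE, n = 6), or 1.20-fold, with an adjusted p of 0.269.

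*Mmrn2*, multimerin 2 of the endothelial matrix, was also higher in null in all 6 replicates, by 0.16, 0.16 and 0.21 in the WT/null and 0.08, 0.03 and 0.14 in the null/WT replicates. Its null levels ran from 13.37 through 13.56 to 13.71 and its WT levels from 13.21 through 13.38 to 13.59. The ratio was small and even, 0.13 ± 0.04 with an adjusted p of 0.588. With *Vwf* and *Adgrf5* it made up the 3 members over 0 in all 6 replicates, a pattern of 1.67% of all tested genes.

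*Cdh5*, VE-cadherin of the adherens junction, was higher in null in 5 of 6 replicates, the exception being WT/null replicate 2 at -0.04. Its ratios at numbers 1, 2 and 3 were 0.12, 0.04 and 0.25, and the fit gave 0.14 ± 0.05 with an adjusted p of 0.648. Null levels ran from 8.90 through 9.05 to 9.20, inside the wider WT range of 8.65 through 8.95 to 9.17 except at the top. *Robo4*, a guidance receptor that stabilises vessels, had a like mean of 0.13 ± 0.06 (adjusted p = 0.710), but its numbers gave 0.10, 0.0011 and 0.28. *Icam2*, an adhesion molecule, stood at 0.11 ± 0.05 (adjusted p = 0.710) with 0.00084, 0.07 and 0.26, so its mean came chiefly from number 3.

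*Cd34*, a sialomucin of capillary endothelium, and *Cldn5*, the claudin of endothelial tight junctions, were likewise near 0 at numbers 1 and 2. *Cd34* had 0.06, -0.02 and 0.23 at the 3 numbers and a mean of 0.09 ± 0.05 (adjusted p = 0.723). *Cldn5* had 0.04, -0.03 and 0.25 and a mean of 0.09 ± 0.06 (adjusted p = 0.729). In *Cldn5* all 3 WT/null replicates were over 0 (0.25, 0.24 and 0.60) and all 3 null/WT replicates under it (-0.17, -0.30 and -0.10), so the sign followed the dye. The means of the other members of the group ran from 0.09 down to 0.02: *Lyve1* (a hyaluronan receptor of lymphatic endothelium and some macrophages) 0.09, *Emcn* (endomucin) 0.08, *Plvap* (the diaphragm protein of fenestrae) 0.07, *Egfl7* (a secreted endothelial matrix protein) 0.05, *Pecam1* (CD31) 0.03 and *Esam* (a junctional adhesion molecule) 0.02. For *Pecam1* the 95% interval ran from -0.08 to 0.13 and for *Esam* from -0.09 to 0.13.

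**Figure D2:**
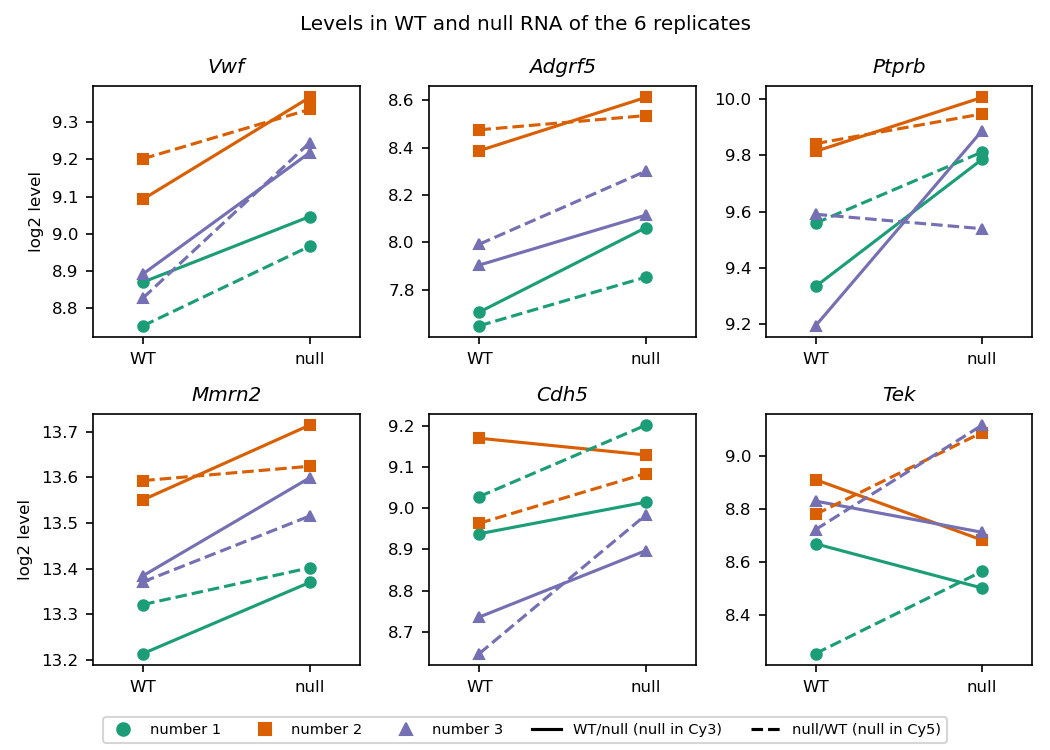
Log2 level (y axis, each panel with its own scale) of 6 members in WT and null RNA (x axis) of the 6 replicates: a line joins the 2 genotypes of a replicate, colour and symbol give the replicate number, and solid lines are WT/null, dashed lines null/WT. *Vwf*, *Adgrf5* and *Mmrn2* go up in all 6 lines, whereas in *Tek* the 3 dashed lines go up and the 3 solid lines go down.

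Among the transcription factors 3 of 4 had a ratio over 0, with a median of 0.04. *Sox7*, *Sox17* and *Sox18* are the SOX factors of endothelium, and their ratios were 0.09, -0.03 and 0.05. For *Sox17*, an arterial factor, the 95% interval ran from -0.12 to 0.06. *Fli1*, an ETS factor of endothelial and blood cells, averaged 0.02 ± 0.07 (adjusted p = 0.933). By its brightest probe it had the widest range between numbers of the 32 members so shown: -0.10, -0.04 and 0.20. The dimmer probes of *Ednrb* (0.17, -0.02 and 0.36) and of *Cdh5* (0.03, 0.12 and -0.19) ranged more widely. The single replicates of *Fli1* ran from -0.49 in null/WT replicate 1 to 0.60 in WT/null replicate 3, again with all the WT/null values over 0 and all the null/WT values under it.

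In the angiopoietin-TIE axis the 2 ligands stood on opposite sides of 0. *Angpt1*, the TIE2 agonist made by mural and mesenchymal cells, had a ratio of -0.04 with a 95% interval from -0.19 to 0.11. *Angpt2*, the ligand made by endothelium itself, had 0.066, -0.0031 and 0.24 at the 3 numbers and a mean of 0.10 ± 0.05 (adjusted p = 0.711). Null levels of *Angpt2* ran from 9.40 through 9.53 to 9.63 and WT levels from 9.29 through 9.39 to 9.60. The difference between the 2 ligands was not tested, and both intervals included 0.

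The receptor *Tek* (TIE2) had ratios of 0.07, 0.04 and 0.14 at numbers 1, 2 and 3, even between the numbers, and a mean of 0.08 ± 0.04 (adjusted p = 0.710). The 2 orientations nevertheless had opposite signs: -0.17, -0.23 and -0.12 in the WT/null replicates and 0.31, 0.31 and 0.39 in the null/WT replicates. *Tie1*, its co-receptor, had 0.02, 0.04 and -0.01 at the 3 numbers and the narrowest range of any member, with a mean of 0.02 and a 95% interval from -0.09 to 0.13.

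*Ptprb*, the VE-PTP phosphatase that dephosphorylates TIE2 and VE-cadherin, had the highest mean ratio of all 32 tested members, 0.27 ± 0.07 or 1.21-fold (adjusted p = 0.514). Its ratio was 0.45, 0.19 and 0.69 in the WT/null replicates and 0.25, 0.11 and -0.05 in the null/WT replicates. Null levels ran from 9.54 through 9.85 to 10.01 and WT levels from 9.20 through 9.58 to 9.84. It was higher in null in 5 of 6 replicates, and the single highest value came from WT/null replicate 3. The duplicate arrays of that replicate had the lowest correlation over all probes. Over the members, the median difference between duplicates was 0.062 there and largest, 0.066, in WT/null replicate 1.

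The arterial Notch and gap junction genes had small positive means, a median of 0.04 over 3 of 3 genes, and a shared pattern over the numbers. *Notch4*, an endothelial Notch receptor, had 0.03, 0.20 and -0.08 at numbers 1, 2 and 3 and a mean of 0.05 ± 0.06 (adjusted p = 0.784). *Dll4*, the Notch ligand of arterial and tip cells, had 0.03, 0.15 and -0.12 and a mean of 0.02 ± 0.05 (adjusted p = 0.895). *Gja4*, the arterial connexin 37, had 0.08, 0.11 and -0.06 and a mean of 0.04. All 3 were highest at number 2 and under 0 at number 3, where the surface and junction group had its highest median, 0.22. The same held for *Pecam1*, *Sox17*, *Tie1*, *Acvrl1* and *Nos3* of other groups, so it was not particular to the arterial genes.

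The 2 receptors of BMP ligands in endothelium had a median of 0.04. *Acvrl1* (ALK1) averaged 0.02 and had -0.04, 0.16 and -0.07 at the 3 numbers. *Eng* (endoglin, its co-receptor) averaged 0.07 and had 0.04, 0.14 and 0.03. As in the arterial group, both were highest at number 2.

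Of the 5 vasoactive enzymes and receptors 4 had a ratio over 0, with a median of 0.08. *Adgrf5* (GPR116, an adhesion G protein-coupled receptor of capillary endothelium and lung epithelium) was the highest, at 0.36, 0.22 and 0.21 in the WT/null replicates and 0.20, 0.06 and 0.31 in the null/WT replicates. Null levels ran from 7.85 through 8.21 to 8.61 and WT levels from 7.65 through 7.95 to 8.47. All 6 replicates were higher in null, and the fit gave 0.23 ± 0.05, or 1.17-fold, with an adjusted p of 0.330. *Ece1*, the enzyme that makes endothelin and also cleaves bradykinin, had 0.17, 0.15 and 0.02 at the 3 numbers and a mean of 0.11 ± 0.05 (adjusted p = 0.710). *S1pr1*, the sphingosine-1-phosphate receptor that limits sprouting, had 0.13, -0.02 and 0.14 and a mean of 0.08 ± 0.04 (adjusted p = 0.712).

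*Nos3*, the endothelial nitric oxide synthase that acts downstream of the bradykinin B2 receptor, had a ratio of -0.02 with a 95% interval from -0.14 to 0.10. At numbers 1, 2 and 3 it stood at -0.03, 0.11 and -0.14, the lowest member at number 3. *Ednrb*, the endothelin B receptor, averaged 0.06 ± 0.08, the largest standard error of the list. Its ratios were 0.34, 0.09 and 0.69 in the WT/null and -0.14, -0.18 and -0.43 in the null/WT replicates. By this probe the sign thus followed the dye at all 3 numbers.

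The second question was how even the genotype difference was between the 3 replicate numbers. The member median was 0.05 at number 1, 0.04 at number 2 and 0.14 at number 3, while 24, 23 and 23 of the 32 members were over 0. Number 3 thus had no more members over 0 than the others, but larger ratios: 16 members had their highest ratio there, 11 at number 2 and 5 at number 1. Over all tested genes 39.1% were highest at number 3, and the ratios of all genes spread more widely there. In all, 12 members were over 0 at all 3 numbers, against 12.5% of all tested genes: *Cdh5*, *Plvap*, *Robo4*, *Mmrn2*, *Icam2*, *Vwf*, *Lyve1*, *Tek*, *Ptprb*, *Eng*, *Ece1* and *Adgrf5*.

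At number 3 the members lay on both sides of 0. *Vwf*, *Ptprb*, *Robo4*, *Icam2*, *Adgrf5*, *Cdh5* and *Cldn5* stood between 0.25 and 0.37. Under 0 were 9 members: *Nos3*, *Dll4*, *Angpt1*, *Sox17*, *Notch4*, *Acvrl1*, *Pecam1*, *Gja4* and *Tie1*, from -0.14 to -0.01. An F test of the replicate number in limma passed for 0 of the 39 member probes, against 1.48% of all tested probes. That count depended on 1 replicate or on the scaling: it was 16 without null/WT replicate 3, 6 without WT/null replicate 3 and 22 with median centring. In the same fits 9927, 4305 and 11447 of the 22979 tested probes passed, so these counts are no result about the members. At an unadjusted p under 0.05 it took 3 member probes (*Icam2*, *Acvrl1* and a dimmer probe of *Ednrb*), against 18.9% of all probes, which is a lower share for the members. Across the 32 members, which share the same arrays, the Spearman correlation of ratio with mean log2 level was 0.331 at number 3, -0.299 at number 1 and -0.122 at number 2. Across all tested genes it was 0.107 at number 3. These correlations were not tested.

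**Figure D3:**
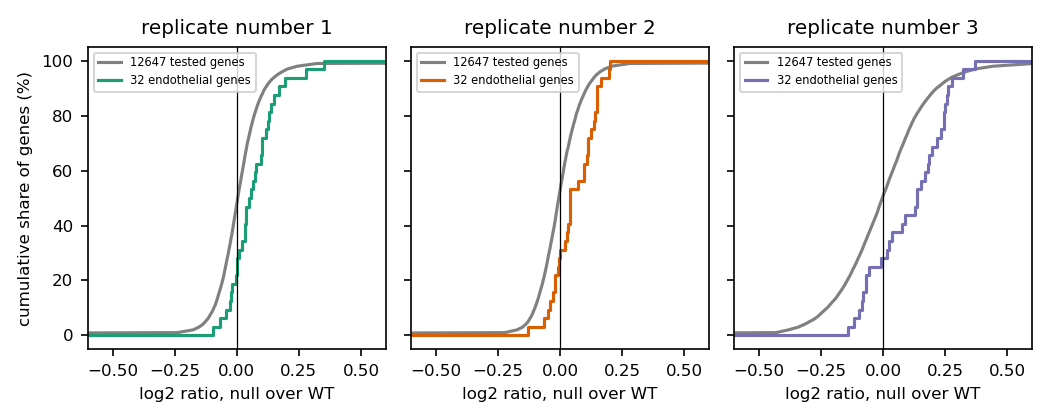
Cumulative share of genes in percent (y axis) with a log2 ratio of null over WT up to the value on the x axis, at replicate numbers 1, 2 and 3 (panels): grey is all 12647 tested genes and colour the 32 tested members. The member curve lies right of the grey curve in each panel over most of its length, and both curves are widest at number 3, where the member median was 0.14.

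The members' values also differed between the dye orientations. The member median was 0.109, 0.105 and 0.151 in WT/null replicates 1, 2 and 3, with 26, 26 and 22 of 32 members over 0. In null/WT replicates 1, 2 and 3 it was -0.008, 0.021 and 0.047, with 15, 19 and 18 members over 0. Of all tested genes, 48.2%, 46.4% and 43.7% were over 0 in the WT/null replicates and 53.8%, 53.2% and 57.3% in the null/WT replicates, with medians of -0.006, -0.013 and -0.039 and of 0.016, 0.010 and 0.038. The members thus stood over the other genes in the orientation with null RNA in Cy3, and were close to them in the other orientation. The difference between the orientations was not tested over the list. A constant dye effect cancels in the mean of both. The dye term passed an adjusted p of 0.05 for 8 of the 39 member probes, against 13.5% of all tested probes. Among the probes shown it passed for 6 members: it was -0.31 for *Ednrb*, -0.31 for *Fli1*, -0.28 for *Cldn5* and -0.19 for *Plvap*, and 0.25 for *Tek* and 0.19 for *Lyve1*, where a positive value means a brighter Cy5.

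For 7 members a second probe was tested, and it did not always repeat the first. The brighter *Vwf* probe (A_51_P103397) averaged 0.26, and the dimmer one (A_51_P103406) 0.09 with 0.14, 0.12 and -0.00086 at the 3 numbers, so the high value at number 3 was seen by the brighter probe only. The dimmer *Cdh5* probe (A_51_P309056) averaged -0.01 with 0.03, 0.12 and -0.19, against 0.14 for the brighter probe (A_52_P248604). *Lyve1* was split in the same way, 0.09 (A_52_P686785) against -0.07 (A_51_P155052), the latter at -0.24 at number 3. In all 3 genes the dimmer probe was the lower one at number 3.

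The pairs of *Sox17*, *Angpt1*, *Fli1* and *Ednrb* each had the same sign in the mean. *Sox17* gave -0.03 and -0.02, *Angpt1* -0.04 and -0.03, *Fli1* 0.02 and 0.06, and *Ednrb* 0.06 and 0.17. The 2 *Fli1* probes had dye terms of opposite sign, -0.31 and 0.22, as had the 2 *Ednrb* probes, -0.31 and 0.30, while their genotype ratios pointed the same way.

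**Figure D4:**
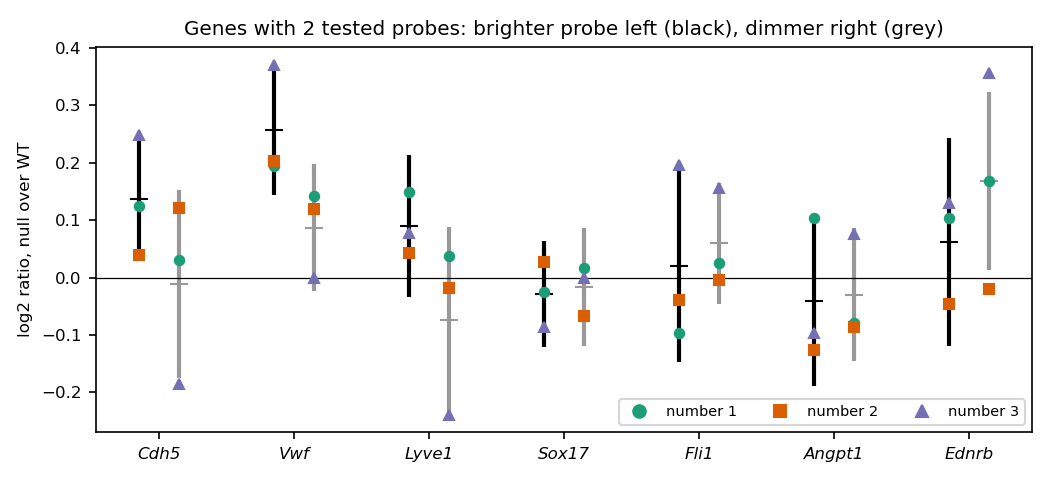
Log2 ratio of null over WT (y axis) for the 7 members with 2 tested probes (x axis): the brighter probe is drawn left in black and the dimmer right in grey, with the 95% interval from limma as a bar, the mean as a tick and the replicate numbers as coloured symbols. The 2 probes of *Cdh5* and of *Lyve1* lie on opposite sides of 0, and at number 3 the dimmer probe of *Vwf*, *Cdh5* and *Lyve1* is far below the brighter one. At that number the dimmer probe of *Sox17*, *Angpt1* and *Ednrb* is above the brighter one.

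Other genes of the same pathways were read from fixed lists, and 0 of their genes passed the test of null over WT. The VEGF family, whose receptors drive endothelial growth, had 8 of 10 genes over 0 and a median of 0.05. *Flt1* (VEGF receptor 1) was the nearest to the threshold of all the genes of these pathway lists, at 0.26, 0.30 and 0.31 at numbers 1, 2 and 3 and 0.29 ± 0.04 with an adjusted p of 0.078, higher in null in 6 of 6 replicates. *Vegfd*, a ligand of lymphatic growth, averaged 0.19 (adjusted p = 0.559).

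Partners of the angiopoietin-TIE axis had 5 of 6 tested genes over 0 and a median of 0.06. *Svep1*, a matrix protein that binds TIE1, had 0.55, 0.41 and 0.13 at the 3 numbers and 0.36 ± 0.08 in the fit (adjusted p = 0.360). *Foxo1*, a transcription factor restrained by TIE2 signalling, averaged 0.12 (adjusted p = 0.630). Of the Notch partners 8 of 10 were over 0 with a median of 0.07, and the 2 smallest p-values belonged to *Jag1*, a ligand, at 0.16 (adjusted p = 0.500) and *Notch3*, the mural cell receptor, at 0.16 (adjusted p = 0.588). BMP-ALK1 partners had 5 of 8 over 0 and a median of 0.03, with the receptor *Bmpr2* at 0.08 (adjusted p = 0.730) and its effector *Smad1* at 0.06 (adjusted p = 0.752).

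Endothelin and nitric oxide partners had 6 of 9 over 0 and a median of 0.01. Within them *Cav1*, caveolin 1, which binds and restrains the nitric oxide synthase, had 0.22, 0.11 and 0.44 and a mean of 0.26 ± 0.06 (adjusted p = 0.464), and the endothelin A receptor *Ednra* averaged 0.17 (adjusted p = 0.541). All 6 tested sphingosine-1-phosphate partners were over 0 with a median of 0.06, *Sphk1* (a kinase that makes the lipid) at 0.17 (adjusted p = 0.646) and *Gna13* (a G protein of its receptors) at 0.12 (adjusted p = 0.605). Other endothelial transcription factors had 11 of 13 over 0 and a median of 0.10, with *Klf4* at 0.18 (adjusted p = 0.380) and the venous factor *Nr2f2* at 0.11 (adjusted p = 0.707). In this list *Klf2* passed the F test of the replicate number (adjusted p = 0.0473), as did 1.48% of all tested probes. It had -0.03, -0.12 and 0.49 at the 3 numbers. Other surface and junction genes had 17 of 19 over 0 and a median of 0.07, with *Gja5* (connexin 40) at 0.21 (adjusted p = 0.414) and *Calcrl* (the adrenomedullin receptor) at 0.15 (adjusted p = 0.588). The arterial connexin *Gja5* had 0.11, 0.28 and 0.25 at the 3 numbers, in contrast to *Gja4* at number 3.

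Markers of several other cell types also lay off 0 in the same contrast, although 0 of them passed the test of null over WT. The F test of the replicate number did pass for some markers, against 1.48% of all tested probes. Among these were *Acta1*, *Tnnc2*, *Myh3* and *Myh8* of skeletal muscle (adjusted p from 0.00093 to 0.0030). *Cnn1* (0.020) and *Tagln* (0.025) of smooth muscle and the erythroid *Alas2* (0.046) passed it too. Of the smooth muscle and pericyte markers 9 of 10 were over 0, with medians of 0.18, 0.13 and 0.29 at numbers 1, 2 and 3, and their summed level ran from 21636 to 29497 in null and from 19305 to 26376 in WT. Renal stroma markers had 7 of 9 over 0 and medians of 0.17, 0.15 and 0.20. All 7 nephron progenitor markers were under 0, with medians of -0.01, -0.06 and -0.22, and proximal tubule markers were over 0 in 6 of 6, with -0.02, 0.11 and 0.61. Both of the latter lists were thus farthest from 0 at number 3, as the members were. Podocyte markers had 6 of 6 over 0, with medians of 0.02, 0.08 and 0.20. Ureteric epithelium markers had 3 of 6 over 0, with 0.02, 0.07 and -0.08.

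Skeletal muscle markers differed most. Of the 8, *Myod1*, *Actn2* and *Ckm* were not bright enough to test, and the other 5 had medians of 0.14, 0.48 and 2.29 at numbers 1, 2 and 3, with a summed level of 570.4 to 3725 in null against 530.5 to 744 in WT. Blood cells share several members with endothelium, so their markers stand beside *Vwf*, *Fli1*, *Cd34* and *Lyve1*. Megakaryocyte and platelet markers had 3 of 6 over 0, medians of -0.05, 0.03 and 0.06, and summed levels of 1215 to 1544 in null and 1203 to 1327 in WT. Macrophage and leukocyte markers had 9 of 9 tested genes over 0 and medians of -0.04, 0.08 and 0.11, with summed levels of 3769 to 4934 in null and 3858 to 4632 in WT and with *Itgam* and *Mrc1* not bright enough to test. Erythroid markers had 6 of 9 over 0, medians of -0.16, 0.01 and 0.11, and summed levels of 170857 to 338263 in null and 139363 to 294361 in WT. The part of any of these cell types, and of sex, in the members' ratios was not tested.

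**Figure D5:**
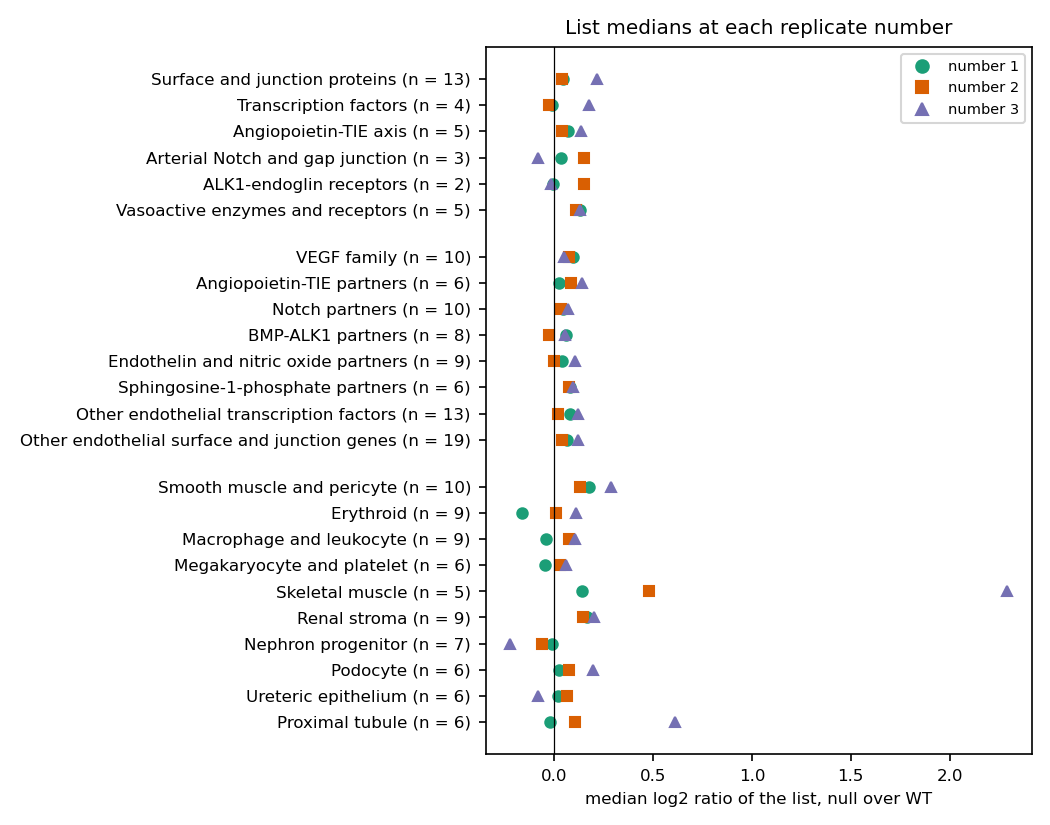
Median log2 ratio of null over WT (x axis) of each gene list (rows, with the number of tested genes) at replicate numbers 1, 2 and 3: the member groups are at the top, their pathway lists in the middle and other cell types at the bottom. Skeletal muscle stands apart at number 3 with 2.29, and the arterial group is the member group farthest under 0 at that number, with -0.08.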

How the data were processed

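Total RNA of null and WT kidneys was hybridised in 12 two-colour Agilent arrays. Median spot and background intensity per dye was deposited as scanned, per the file headers (Feature Extraction 10.5.1.1; the submitters' processing notes name 6.1). The same files held the scanner's normalized intensity and its log10 ratio, per the file headers. In the series table the deposited log10 ratios ran as null over WT: its columns correlated with the scanner's at 0.998 to 0.999 with slopes of 1.00, which settles scale and direction. Its centring is not stated. The column medians were -0.00257, -0.00440, -0.000946, -0.000769, -0.0218 and -0.0100 on the WT/null arrays and 0.000114, -0.00174, -0.00332, -0.00315, 0.00645 and 0.00145 on the null/WT arrays. It had 0 columns without a sample.

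Background was corrected with normexp (offset 50), and loess was applied to the log2 ratios of each array, with control and outlier spots (101 to 262 per array) at weight 0 and then left out. Spots of a probe and the 2 arrays of a replicate were averaged. Testing required a signal well above background for null RNA, or for WT RNA, in 6 or more of the 12 arrays (22979 of 41174 probes). Levels are the mean log2 intensity of a channel after loess and quantile scaling of the mean brightness. limma 3.58.1 in R 4.3.3 fitted genotype and dye over all tested probes, with Benjamini-Hochberg adjustment at 0.05. The fit was also run on simulated data, only to check the code. The noise of those data was independent between replicates, so they could not show the effect of same-numbered replicates that deviate together. The number of arrays limits the precision.

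Gene names came from probe accessions matched to RefSeq (GRCm38.p6). A symbol was found for 25097 probes. Probe positions are not given, since the array header refers to mm9. A gene is shown by its brightest tested probe, and a second probe is named where its sign differs or its value differs by over 0.2. Described in full are the 12 members with the smallest p, the 5 with the widest range between numbers, and related pairs, beside up to 2 genes per pathway list. The members and lists were chosen with earlier results of these data known.

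Arrays of 1 slide (4 arrays) share a replicate number, and same-numbered replicates deviated together (correlations 0.587, 0.517 and 0.413), so the numbers pair the samples. The slide, any shared RNA and the sex of the embryos all go with the number, and their parts in this pairing were not tested. The fit with the number as a block took the 3 pair means. If both orientations of a number shared RNA extracts, only those pairs were independent and the other p-values are too small. Alternatives are listed in the closing section.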

Additional observations from a re-analysis of the deposited data

How the results depend on the processing

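Under every alternative run, 0 member probes passed the test of null over WT, with the replicate block included (0 of 39, against 4 calls among all probes). The count of members over 0 ran from 25 to 32 of 32, and their median from 0.0519 to 0.0986, apart from median centring of the arrays in place of loess. That centring gave 0.245 while it moved the median of all genes to 0.163, and 28 of 32 members lay above the latter. With it the F test of the replicate number passed for 22 member probes, as it did for 11447 of all probes. Without single replicates that test passed for 0 to 16 member probes, 6 without WT/null replicate 3 (4305 of all probes) and 16 without null/WT replicate 3 (9927 of all probes), and the cause was not tested. *Vwf* ran from 0.17 to 0.31 (adjusted p 0.184 to 0.904), *Adgrf5* from 0.20 to 0.32 (0.197 to 0.918) and *Ptprb* from 0.21 to 0.34 (0.239 to 0.923).

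The sign of 20 members held in all alternatives other than median centring, and that of 12 members near 0 did not when replicates or numbers were left out: *Pecam1* ran from -0.0101 to 0.0713, *Esam* from -0.0233 to 0.0686, *Sox17* from -0.0557 to 0.000946, *Sox18* from -0.00479 to 0.0842, *Fli1* from -0.0677 to 0.0808, *Angpt1* from -0.112 to 0.0131, *Tie1* from -0.0153 to 0.0416, *Notch4* from -0.0240 to 0.114, *Dll4* from -0.0413 to 0.0920, *Acvrl1* from -0.0567 to 0.0603, *Nos3* from -0.0841 to 0.0415 and *Ednrb* from -0.0181 to 0.134. Median centring turned *Sox17* to 0.15, *Angpt1* to 0.0631 and *Nos3* to 0.15. *Angpt1* was 0.0242 with the scanner's log ratio, 0.0239 with the authors' table and 0.0160 when the widest array (the first of WT/null replicate 3) was left out, and *Nos3* was 0.0140 with the authors' table; the cause was not tested. The other settings were no background subtraction, no filter on dim probes, signal over background on all arrays, and the mean of a gene's tested probes. Signal over background limits *Clec14a* and *Erg*, for which no ratio is given.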
